A study of Mus musculus with 8 samples.

Results

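The genes described here are 10 genes of hepatic gluconeogenesis and the fasting response, chosen by name: G6pc, Slc37a4, Fbp1, Ppargc1a, Foxo1, Igfbp1, Tat, Sds, Pck1 and Irs2. Of these 10 genes, 8 were measured with 10 probes, among 15338 genes compared in all. Pck1, the cytosolic enzyme that makes phosphoenolpyruvate, and Irs2, an adaptor of the insulin receptor, were not analysed here. G6pc had a single probe, and Ppargc1a and Foxo1 had 2 probes each. The choice of genes used the difference between genotypes on chow, so every chow difference of the 8 genes below is a description without a test.

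The livers came from AIM-/- and AIM+/+ mice of C57BL/6 strain background, and total RNA was measured. Cd5l encodes AIM, a protein that macrophages of tissues secrete. The groups were AIM-/- livers of mice kept on normal chow (called 0 weeks) or after 6, 12 or 20 weeks on a high-fat diet, and AIM+/+ livers at the same 4 times. Each of these 8 groups has 1 one-colour array of 1 biological sample, so the error of a test comes from the spread over weeks or over genotypes, not over animals. The labels used here do not give the age, sex, feeding state or hour of collection of the mice, nor how many animals a sample holds.

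The liver makes glucose from lactate, glycerol and amino acids when food is withheld. Glucagon and glucocorticoids raise the transcripts of the enzymes involved, and insulin lowers them after a meal, in part by keeping the forkhead factor FOXO1 out of the nucleus. Glucose-6-phosphatase, the complex of a catalytic subunit (G6pc) and a transporter that feeds it (Slc37a4), releases the glucose at the end of the pathway.

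Signals are given relative to the array's 75th percentile, so a relative signal of 2 is a spot 2 times as bright as that percentile. An array had 18586 to 21119 of 41174 probes marked by the scanner software as well above background, and all 10 probes of the 8 genes were so on all 8 arrays, with none saturated. Cd5l had relative signals of 0.320, 0.462, 0.608 and 0.451 in AIM-/- livers at 0, 6, 12 and 20 weeks, against 41.5, 85.3, 107.7 and 74.7 in AIM+/+ livers. All AIM-/- arrays shared a slide and a scan, and all AIM+/+ arrays another slide and scan, so slide and genotype cannot be told apart. Ddx3y, Kdm5d and Eif2s3y, all on the Y chromosome, were not well above background on either 20-week array but were so on the other 6, and at 20 weeks Xist had relative signals of 2.69 and 2.83. Time and sex therefore cannot be told apart in any comparison with 20 weeks, and diet cannot be told apart from time. Xist was also well above background on 2 of the other 6 arrays. Outside 20 weeks its signal was highest in the AIM-/- liver at 6 weeks (0.546) and the AIM+/+ liver at 12 weeks (0.236). Of 7 hepatocyte markers measured, 7 were well above background on every array, with summed relative signals of 3416 to 4011 in AIM-/- livers and 3590 to 4502 in AIM+/+ livers.

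The promoters of G6pc and Igfbp1, the 2 measured genes furthest apart on chow, are shown because both hold the letters CAAAACA, the core of the insulin response element that forkhead factors bind. Each run is the 250 bases before the RefSeq start of the gene on GRCm38.p6, on the gene's own strand, with the match in capitals. The G6pc run lies at chr11:101367466-101367715 and that of Igfbp1 at chr11:7197537-7197786, both on the plus strand.
G6pc: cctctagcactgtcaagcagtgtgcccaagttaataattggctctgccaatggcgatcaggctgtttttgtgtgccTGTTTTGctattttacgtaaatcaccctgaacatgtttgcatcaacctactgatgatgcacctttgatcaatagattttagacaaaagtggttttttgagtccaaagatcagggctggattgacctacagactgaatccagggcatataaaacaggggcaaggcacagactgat
Igfbp1: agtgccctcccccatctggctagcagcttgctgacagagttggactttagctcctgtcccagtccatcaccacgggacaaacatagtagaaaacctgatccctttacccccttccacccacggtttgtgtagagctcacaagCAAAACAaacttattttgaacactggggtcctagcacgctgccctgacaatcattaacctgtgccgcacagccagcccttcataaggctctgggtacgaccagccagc
The match starts at position -174 of G6pc, on the strand opposite to the gene (TGTTTTG as printed), and at -108 of Igfbp1, on the gene's strand. Windows from 250 bases before to 50 after the start were searched on both strands. Each of the 10 genes counts once if any of its windows matched, and Slc37a4 had 3 windows. The shares over all genes count windows instead, so the 2 are in unlike units. Among the 10 genes, 9 had a window, and 3 of these 9 held CAAAACA (G6pc, Igfbp1 and Irs2), as did 6.28% of 32851 windows of all genes. GTAAACA, another forkhead core, was in 0 of the 9 and in 3.65% of all windows. The full cAMP response element TGACGTCA was in 0 of the 9 and in 1.79% of all windows. Its half-site TGACG, which the full element contains, was in 3 of the 9 (Pck1, Ppargc1a and Slc37a4) and in 20.8% of all windows. A match describes these letters only, not a bound site.

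On chow, G6pc was the gene of the 8 that stood furthest apart. Its relative signal was 3.17, 64.0, 19.8 and 50.9 in AIM-/- livers at 0, 6, 12 and 20 weeks, against 120.3, 52.8, 37.0 and 73.1 in AIM+/+ livers. The AIM-/- chow liver was the lowest of the 8 livers and the AIM+/+ chow liver the highest. The difference on chow was -5.24 on the log2 scale, 37.9-fold, and ranked 2 from the lowest among 12438 genes well above background on all arrays, after Cd5l itself. Before scaling, the processed signals of this pair were 899.5 in the AIM-/- liver and 30558 in the AIM+/+ liver. The dim spot was even, with a mean pixel value of 1013 and a median of 1006 over 62 pixels, and no outlier mark. Without the AIM-/- chow array, the other 7 arrays spanned 6.09-fold. The probe (A_51_P462385, NM_008061) lies at chr11:101193723-101193782 on mm8, the build of the array files, and that of Igfbp1 (A_51_P447545, NM_008341) at chr11:7102442-7102501. In whole liver, fewer cells of a type and less RNA per cell cannot be told apart.

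Slc37a4, the glucose-6-phosphate transporter that works with G6pc, showed no gap of that size. Its relative signal was 58.3, 62.2, 66.2 and 74.2 in AIM-/- livers at 0, 6, 12 and 20 weeks, against 76.4, 74.0, 62.8 and 81.6 in AIM+/+ livers. The AIM-/- chow liver was again the lowest of the 8, but all 8 arrays lay within 1.40-fold of each other. The chow difference was -0.39 (log2).

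Fbp1, the fructose bisphosphatase of the pathway, was the steadiest of the 8 genes. It had relative signals of 660.1, 646.3, 544.6 and 695.5 in AIM-/- livers at 0, 6, 12 and 20 weeks, against 575.0, 537.5, 616.9 and 603.4 in AIM+/+ livers. The 2 genotypes overlapped, and the whole range was 1.29-fold.

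Igfbp1, a secreted binding protein of insulin-like growth factors whose transcript insulin lowers, was also lower in the AIM-/- chow liver. Its relative signal was 24.0, 22.6, 97.4 and 60.8 in AIM-/- livers at 0, 6, 12 and 20 weeks, against 143.8, 27.6, 49.1 and 167.2 in AIM+/+ livers. The chow difference was -2.58 (log2), 5.99-fold. Here the AIM-/- chow level was not outside the others: the AIM-/- and AIM+/+ livers at 6 weeks were at 22.6 and 27.6. On high-fat diet the genotype order changed with the week, at -0.29, 0.99 and -1.46 (log2) after 6, 12 and 20 weeks.

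Tat, the aminotransferase that starts tyrosine breakdown and a classical target of glucocorticoids, did not separate the chow livers. Its relative signal was 205.5, 100.5, 77.3 and 164.1 in AIM-/- livers at 0, 6, 12 and 20 weeks, against 196.0, 202.1, 84.4 and 133.1 in AIM+/+ livers. Both genotypes had their lowest level at 12 weeks. The widest gap between genotypes was at 6 weeks, at -1.01 (log2), and the chow difference was 0.07.

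Sds, which turns serine into pyruvate, went the other way from G6pc on chow. Its relative signal was 117.6, 57.5, 56.7 and 89.6 in AIM-/- livers at 0, 6, 12 and 20 weeks, against 60.1, 90.7, 42.0 and 93.8 in AIM+/+ livers. The AIM-/- chow liver was the highest of the 8, and the chow difference was 0.97 (log2), 1.96-fold. Across the 8 arrays Sds and Tat followed each other, with a Pearson correlation of 0.74 (0.864 over the 6 high-fat diet arrays), where the arrays share slides by genotype.

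The regulators Foxo1 and Ppargc1a were nearly level on chow. The brighter Foxo1 probe had relative signals of 6.39, 4.69, 7.30 and 8.23 in AIM-/- livers at 0, 6, 12 and 20 weeks, against 6.22, 8.09, 5.62 and 7.99 in AIM+/+ livers. Its chow difference was 0.04 (log2), and that of the other probe was 0.41. Ppargc1a, a transcriptional coactivator that fasting induces in liver, had relative signals of 1.47, 0.930, 1.35 and 1.33 in AIM-/- livers at 0, 6, 12 and 20 weeks, against 1.37, 1.51, 1.88 and 1.58 in AIM+/+ livers. Its chow difference was 0.09 (log2), with 0.39 for the other probe. The probes of a gene correlated at 0.847 for Foxo1 and at 0.437 for Ppargc1a over the 8 arrays.

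**Figure D1:**
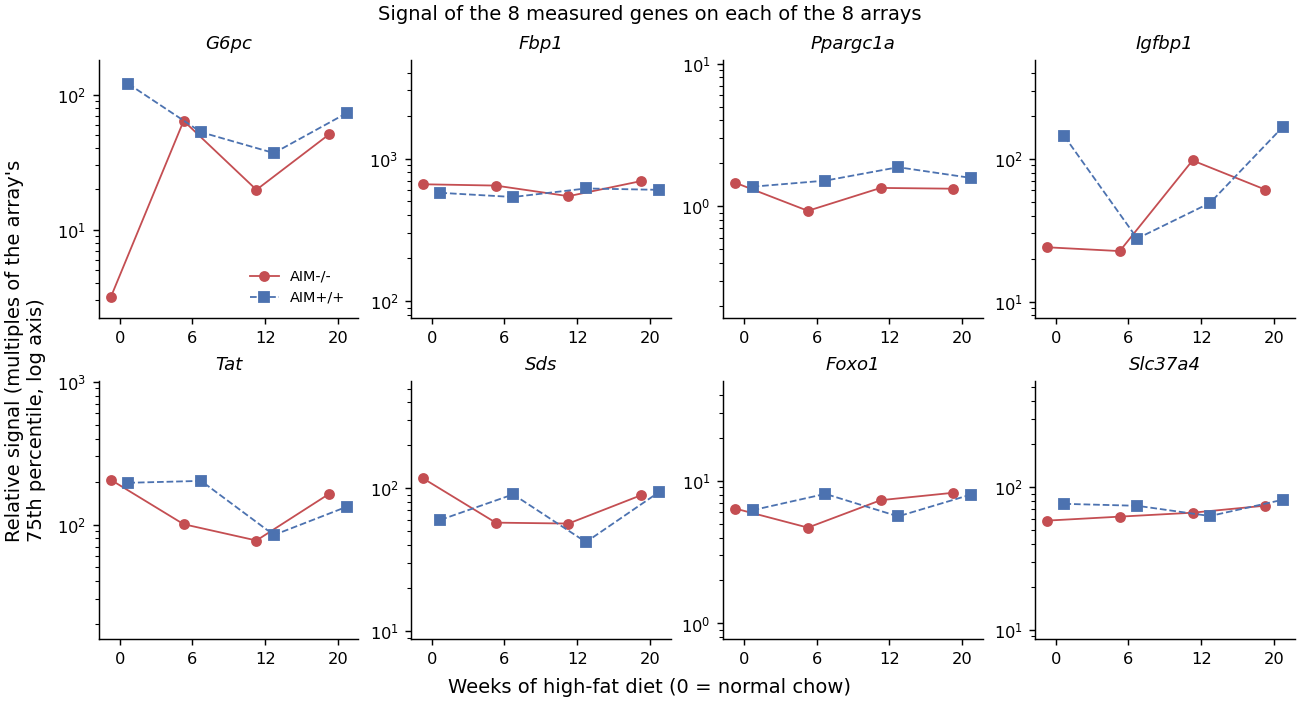
Relative signal (multiples of the array's 75th percentile, log axis) against weeks of high-fat diet for the brightest probe of each of the 8 measured genes, with 1 array per point, AIM-/- as red circles and AIM+/+ as blue squares. The AIM-/- chow liver stands at 3.17 for G6pc, below the other 7 arrays, while Fbp1 and Slc37a4 stay within 1.29-fold and 1.40-fold.

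Across the 8 genes, then, 2 were at least 2-fold lower in the AIM-/- liver on chow (G6pc and Igfbp1) and 0 at least 2-fold higher. Over all genes, 4.34% were at least 2-fold lower and 2.91% at least 2-fold higher on chow. The chow median was 0.05 for the 8 genes and 0.01 for all genes (log2). At 6 weeks 1 of the 8 (Tat) was at least 2-fold apart, where 6.57% of all genes were. At 12 weeks 0 of the 8 were, where 4.56% of all genes were, and at 20 weeks 1 of the 8 (Igfbp1) was, where 4.16% of all genes were. The G6pc difference was 0.28, -0.90 and -0.52 (log2) at 6, 12 and 20 weeks, within 2-fold each time.

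**Figure D2:**
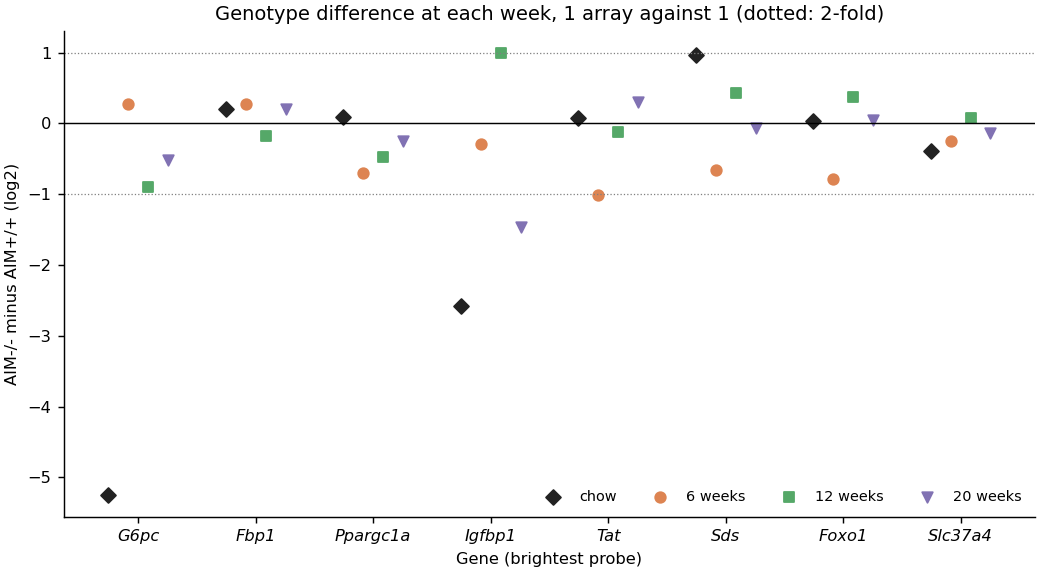
Difference between AIM-/- and AIM+/+ livers (log2) for the brightest probe of each gene, with 1 point per week, chow as black diamonds and the 6, 12 and 20 week pairs in colour; dotted lines mark 2-fold. G6pc (-5.24) and Igfbp1 (-2.58) on chow lie far below the other points.

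Genotypes were tested on the 6 high-fat diet arrays alone, with limma and the week as a block. None of the 8 genes passed (adjusted p of 0.855 to 1), where 0.00652% of all genes, Cd5l only, passed and 5.35% had an unadjusted p under 0.05. The G6pc difference was -0.38 (SE 0.27), between -0.71 and -0.12 when 1 week was left out, and -1.60 with the chow pair included. That of Igfbp1 was -0.25 (SE 0.50), between -0.88 and 0.35 when 1 week was left out. The furthest from 0 in units of its error was Ppargc1a, at -0.48 (SE 0.14, unadjusted p = 0.0256 and adjusted p = 0.855 in limma), lower in AIM-/- livers in 3 of 3 weeks. The other Ppargc1a probe gave -0.18 (SE 0.19). With that probe AIM-/- livers were lower at 6 and 20 weeks (-0.55 and -0.17) but higher at 12 weeks (0.20). With 6 arrays and 2 residual degrees of freedom, this fit seldom recovered a 2-fold difference in simulated data. The noise of those data came from all 8 arrays, chow pair included.

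The effect of diet was tested as the mean of 6, 12 and 20 weeks minus chow over all 8 arrays. None of the 8 genes passed in limma (adjusted p of 0.179 to 0.958), where 2.33% of all genes passed and 25.2% had an unadjusted p under 0.05. Tat was lower on high-fat diet by -0.75 (log2, SE 0.27, unadjusted p = 0.0403 and adjusted p = 0.179 in limma), at -0.90 without the 20-week pair and -0.47 (adjusted p = 0.503) without the 12-week pair. G6pc had a difference of 1.23 with an SE of 1.11, its chow livers being 37.9-fold apart, and 1.02 without the 20-week pair. Igfbp1 had -0.07 (SE 0.69), and -0.50 without the 20-week pair. For G6pc the genotypes changed in opposite directions and came closer together: against its own chow liver the signal was 20.2-fold, 6.23-fold and 16.1-fold higher in AIM-/- livers after 6, 12 and 20 weeks, and 2.28-fold, 3.25-fold and 1.65-fold lower in AIM+/+ livers. All of these folds rest on the chow pair used to choose the genes. Its AIM-/- liver was the lowest of all 8 arrays and its AIM+/+ liver the highest. The opposite directions follow from that, so they are a description and not a result about diet.

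Between weeks, none of the 8 genes passed in limma from 6 to 12 weeks (adjusted p of 0.298 to 0.959 and 0 of the 8 at an unadjusted p under 0.05, with 0% of all genes passing and 17.7% at an unadjusted p under 0.05) or from 12 to 20 weeks (adjusted p of 0.369 to 0.814 and 1 of the 8, Tat, at an unadjusted p under 0.05, with 0.117% of all genes passing and 13.4% at an unadjusted p under 0.05). Tat and Sds had differences of -0.82 (SE 0.33) and -0.57 (SE 0.40) for 12 minus 6 weeks and of 0.87 (SE 0.33) and 0.91 (SE 0.40) for 20 minus 12 weeks. Igfbp1 had 1.47 (SE 0.85) for 12 minus 6 weeks. At 20 minus 12 weeks 7 of the 8 genes had a positive difference, with a median of 0.44 against -0.0029 over all genes (log2).

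**Figure D3:**
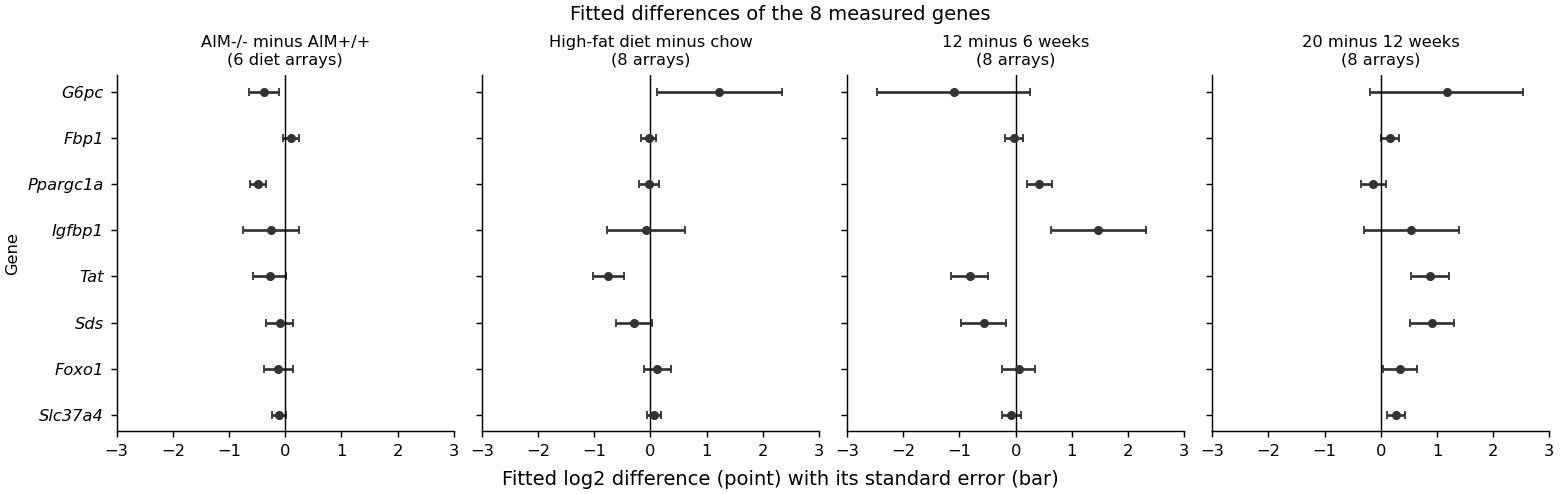
Fitted log2 differences (points) with their standard errors (bars) of the 8 genes in the 4 tested comparisons. The G6pc bars are wide wherever the chow arrays enter the fit, with an SE of 1.11 for diet against 0.27 between genotypes on high-fat diet.

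Whether the chow pair differed in the way fed and fasted livers differ was described with gene lists whose response to feeding is known. Neither genotype's feeding state is recorded in the labels used here. With 1 array against 1, counts and medians are given without a test. The shares of all genes at least 2-fold apart on chow (2.91% higher, 4.34% lower) apply to each list. For direction alone, 7934 of all 15338 genes were higher in the AIM-/- liver on chow. At 6, 12 and 20 weeks 6807, 7593 and 8495 of them were.

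The remaining enzymes of gluconeogenesis moved little on chow. Of 22 measured, 0 reached 2-fold in either direction, and the median was -0.12 (log2). Pck2, the mitochondrial counterpart of Pck1, was lowest at -0.97, and was lower in the AIM-/- liver at 6, 12 and 20 weeks too (-1.03, -0.71 and -1.43). Got1, an aspartate aminotransferase, was highest at 0.78. Among 19 measured regulators, 0 were at least 2-fold higher and 1 was lower: Irs1, an adaptor of the insulin receptor, had a relative signal of 3.30 in the AIM-/- liver and 7.56 in the AIM+/+ liver. The transcription factors Cebpa and Hnf4a had differences of 0.76 and 0.70.

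Genes that fasting raises through the fatty acid receptor PPAR alpha leaned to the low side in the AIM-/- chow liver. Of 17 measured, 14 were lower (6 by 2-fold or more) and 0 were higher by 2-fold or more, with a median of -0.46 (log2). Pdk4, the kinase that shuts off pyruvate oxidation, had a relative signal of 0.155 in the AIM-/- liver and 2.22 in the AIM+/+ liver, a difference of -3.83. Fgf21, a hormone of the fasted liver, was not well above background in the AIM-/- liver and at least 3.84-fold lower there. Cyp4a14, a fatty acid hydroxylase, had -1.35, and Angptl4, a lipoprotein lipase inhibitor, had -1.33. At 6 weeks the list lay the other way, with 13 of 17 higher in the AIM-/- liver and a median of 0.50. Pdk4 was then at 2.06 and Fgf21 at 2.56. At 12 weeks 14 of 17 were lower again (median -0.21), and at 20 weeks 11 of 17 (median -0.08).

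Genes that feeding raises leaned to the low side in the same liver. Of 22 lipogenic and glycolytic genes measured, 18 were lower in the AIM-/- chow liver (8 by 2-fold or more) and 4 higher (1 by 2-fold or more), with a median of -0.71 (log2). Pklr, the liver pyruvate kinase, had a relative signal of 0.839 in the AIM-/- liver and 3.49 in the AIM+/+ liver (-2.06). Me1, malic enzyme, had -1.79, Acacb, an acetyl-CoA carboxylase, also -1.79, and Acss2, an acetyl-CoA synthetase, -1.60. Of 17 sterol synthesis genes, 6 were at least 2-fold lower and 0 higher, with a median of -0.65. Hmgcs1, which makes the precursor of mevalonate, had -1.98, and Mvd, Fdps and Nsdhl, later enzymes of the pathway, had -1.64, -1.36 and -1.35. So the PPAR alpha list, of genes that fasting raises, and the lipogenic list, of genes that feeding raises, were both mostly lower in the AIM-/- chow liver. At 6 weeks 15 of 22 lipogenic and glycolytic genes were higher in the AIM-/- liver (median 0.14), and 8 of 17 sterol genes were. At 12 weeks the lipogenic and sterol lists were again mostly lower in the AIM-/- liver (17 of 22 with a median of -0.46, and 15 of 17 with a median of -0.41), and at 20 weeks mostly higher (17 of 22 with a median of 0.27, and 16 of 17 with a median of 0.33).

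Amino acid catabolism, which fasting raises, lay the other way from G6pc. Of 14 genes measured, 13 were higher in the AIM-/- chow liver, with a median of 0.31 (log2), 1 of them at least 2-fold: Agxt, an aminotransferase of glyoxylate and alanine, had a relative signal of 558.2 in the AIM-/- liver and 250.8 in the AIM+/+ liver. Gls2, which breaks down glutamine, had 0.77, and Prodh, proline dehydrogenase, was the 1 lower gene at -0.82. Of 12 genes of glycogen and glucose transport, 0 were at least 2-fold higher and 1 was lower, with a median of -0.31. That gene was Ppp1r3b, a subunit that steers protein phosphatase to glycogen, at -1.45. Gys2, the liver glycogen synthase, had 0.93, and Slc2a2, the glucose transporter of hepatocytes, -0.88.

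Of 10 genes that glucocorticoids act on, 2 were at least 2-fold higher and 2 lower in the AIM-/- chow liver. By direction alone 6 of the 10 were lower, with a median of -0.41 (log2). The metallothioneins Mt1 and Mt2 were higher by 2.74 and 2.19 (log2). Cdkn1a, a cell cycle inhibitor, was at least 3.30-fold lower, and the phosphatase Dusp1 had -1.21. Of 13 acute phase genes, 2 (Saa2 and Saa3) were at least 2-fold higher, by 2.16-fold and 2.003-fold, and 0 lower.

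**Figure D4:**
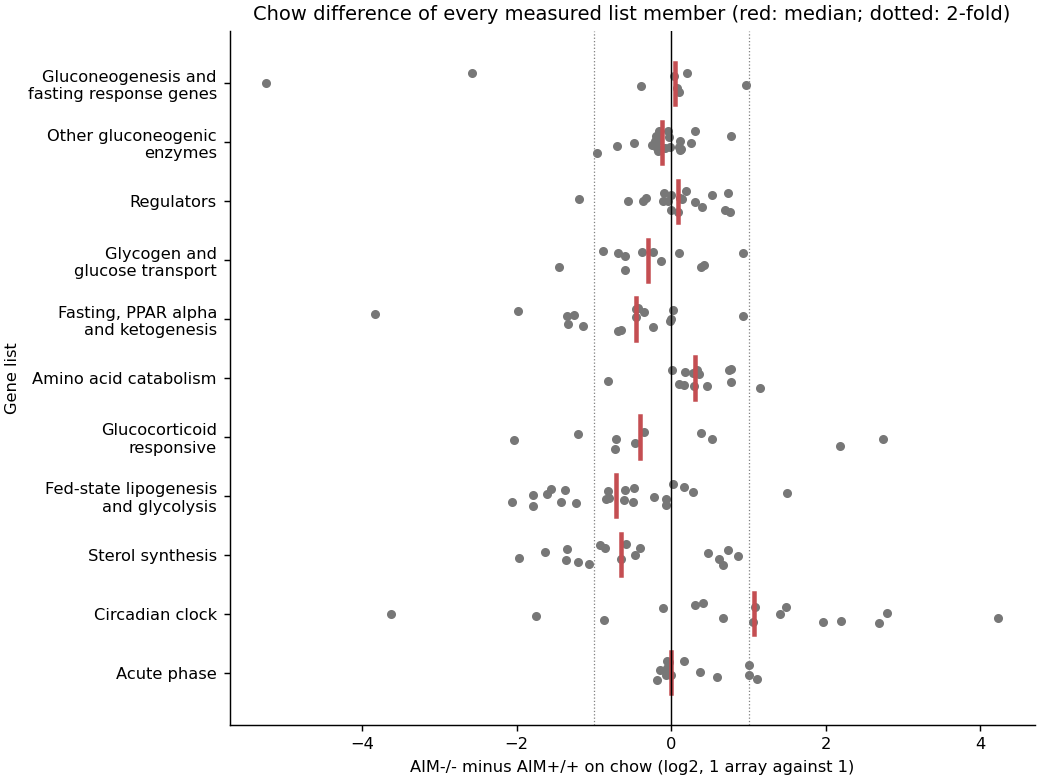
AIM-/- minus AIM+/+ difference on chow (log2, 1 array against 1) of each measured gene, by list, with the list median in red and 2-fold as dotted lines. The fasting and PPAR alpha list and the fed-state list both have medians below 0 (-0.46 and -0.71), and the clock list has one of 1.07.

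Clock genes, which in liver follow both the hour of day and meals, had the highest median on chow among these lists. Of 16 measured, 9 were at least 2-fold higher and 2 lower in the AIM-/- chow liver, with a median of 1.07 (log2). Dbp, a clock output factor that peaks late in the light phase in mice, had a relative signal of 268.0 in the AIM-/- liver and 38.8 in the AIM+/+ liver, 6.90-fold. Ciart, a repressor of the clock, was at least 14.7-fold higher and Bhlhe41, another repressor, at least 2.83-fold higher. Arntl (Bmal1), the activator that cycles opposite to Dbp, was at least 9.59-fold lower. The other lower gene, named after its value was seen, was Nfil3, at -1.75. At 12 and 20 weeks 0 of the 16 were at least 2-fold apart, and at 6 weeks 1 was higher and 3 lower. Their part in the G6pc and Igfbp1 differences on chow was not tested.

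**Figure D5:**
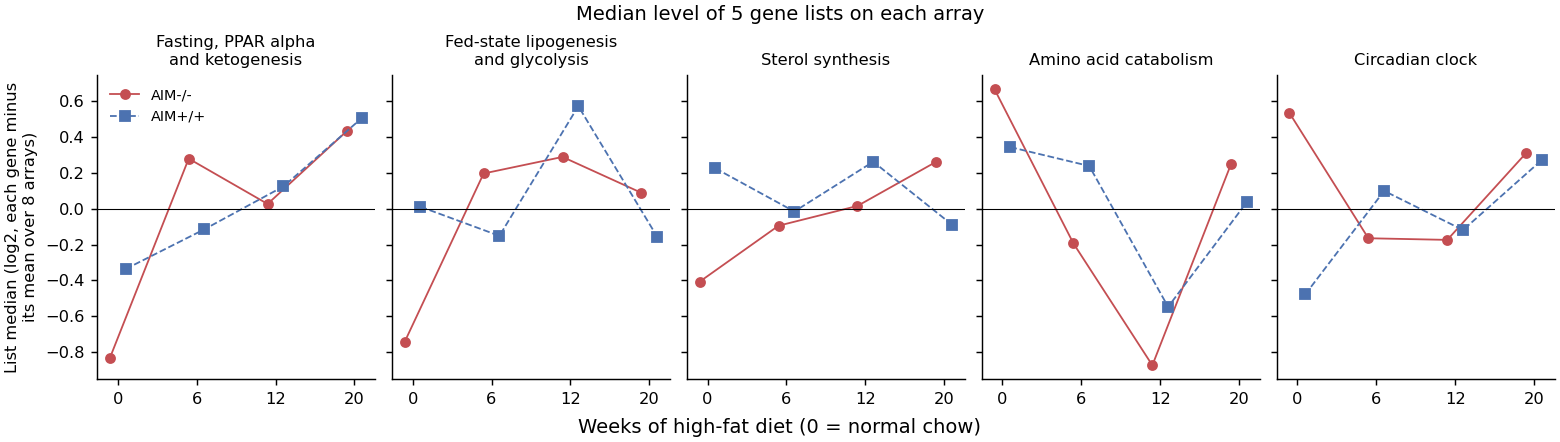
Median level of 5 gene lists on each array (log2, each gene minus its mean over the 8 arrays) against weeks of high-fat diet, AIM-/- as red circles and AIM+/+ as blue squares. The AIM-/- chow liver is the lowest array for the fasting list (-0.83) and the fed-state list (-0.74), and the highest for amino acid catabolism (0.67) and the clock (0.53).

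Markers of other cells were read beside these values. On chow 8 of 8 Kupffer cell, 8 of 8 stellate cell, 6 of 6 endothelial and 3 of 3 exocrine pancreas markers lay within 2-fold between genotypes. Of 4 markers of intestinal and gallbladder mucosa measured, 1 differed, Tff3, with a relative signal of 28.1 in the AIM-/- chow liver and 0.913 in the AIM+/+ chow liver, and the list's summed signal was 112.0 and 81.9. Of 5 bile duct markers, 1 was at least 2-fold higher. Another 2 were lower but not well above background in the AIM-/- chow liver, by at least 1.145-fold and 1.594-fold. The 1 kidney tubule marker measured, Lrp2, had a relative signal of 0.430 in the AIM-/- chow liver. Lrp2 was not well above background in the AIM+/+ chow liver (0.0623), a difference of at least 4.37-fold. Of 2 adipose markers, 1 was at least 2-fold lower. Their part in the chow differences was not tested.

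On high-fat diet against chow, few genes of these lists passed in limma, where 2.33% of all genes passed. With 1 or 2 members called in each list that had any, these counts are not read as results about the lists. Ldha, lactate dehydrogenase, rose by 0.86 (SE 0.12, log2, adjusted p = 0.0467), 1 of 22 other gluconeogenic enzymes. Bdh1, which makes the ketone body hydroxybutyrate, rose by 0.98 (SE 0.10, adjusted p = 0.0356), 1 of 17 fasting genes. Hal and Ass1, of histidine breakdown and the urea cycle, fell by 1.59 (SE 0.19, adjusted p = 0.041) and by 1.09 (SE 0.15, adjusted p = 0.0467), 2 of 14 genes of amino acid catabolism. All 14 had a negative difference, with a median of -0.67 against -0.02 over all genes. The direction of the list as a whole was not tested. In the fed-state list Pnpla5, a lipase family member, rose by 2.29 (SE 0.14, adjusted p = 0.0213) and Mlxipl, the glucose-sensing factor ChREBP, fell by 0.80 (SE 0.11, adjusted p = 0.0481), 2 of 22. Lcn2 rose by 3.82 (SE 0.25, adjusted p = 0.0238), 1 of 13 acute phase genes. Among the markers, Spp1 of bile duct, Fabp2 of mucosa and Lrat of stellate cells rose by 3.52 (SE 0.47), 1.75 (SE 0.12) and 0.69 (SE 0.10), 1 each of 5, 4 and 8 measured markers. The other mucosa markers, Tff3, Muc6 and Vil1, had -4.11, -0.0051 and -0.10, and did not pass. Sox9 of bile duct had -0.64, in a list with a median of 1.13. Without the 20-week pair, or without the 12-week pair, 0 of all genes passed in limma (2928 and 2530 at an unadjusted p under 0.05), so all of these calls were lost. Without the 6-week pair 522 of all genes passed.

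The genes whose pattern most resembled that of G6pc over the 8 arrays, among 10496 named genes well above background on all of them, were Gramd1c (Pearson r = 0.972), Tbc1d2 (0.966), Lgalsl (0.962), Slc25a25 (0.948) and Ank (0.947). Slc25a25, a mitochondrial carrier of ATP and phosphate, had relative signals of 9.14, 74.5, 19.7 and 76.9 in AIM-/- livers at 0, 6, 12 and 20 weeks, against 80.9, 77.7, 55.6 and 104.3 in AIM+/+ livers. Like G6pc it was lowest in the AIM-/- chow liver and next lowest in the AIM-/- liver at 12 weeks. The most opposite were Stbd1 (-0.991), a glycogen-binding protein, Phax (-0.987), Ppp1cb (-0.945), a catalytic subunit of protein phosphatase, Pla2g12a (-0.944) and Ehmt2 (-0.942). Stbd1 had a relative signal of 18.6 in the AIM-/- chow liver and 8.47 in the AIM+/+ chow liver. Over the 6 high-fat diet arrays other genes were nearest: Zfp277 (0.993), Tbrg1 (0.980), Slc10a1 (0.980), Parp1 (0.980) and Havcr1 (0.979). These are descriptions of 8 and 6 arrays that share slides. G6pc spanned 37.9-fold over the 8 arrays and 6.09-fold without the AIM-/- chow array. That single array, of the pair used to choose the genes, therefore weighs heavily in the correlations over 8 arrays.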

How the data were processed

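Liver RNA of 8 groups, 1 array each, was measured on one-colour Agilent arrays. The processed signal intensity was deposited by the authors and comes from version 9.5 of Agilent Feature Extraction, as the submitters' processing notes say (9.5.3.1, protocol GE1-v5_95_Feb07, per the file headers). The deposited value table holds log2 values, which matched the log2 processed signal minus the array's 75th percentile. Its direction and centring thus follow the scanner files.

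Control spots (1639 an array) and outlier spots (75 to 130) were left out, spots of a probe averaged, and log2 intensity scaled by the array's 75th percentile. Probes well above background on at least 2 arrays were kept (21385), and the brightest stood for a gene. Accessions were named through RefSeq (24375 probes matched, 16799 not). Tests used limma 3.58.1 in R 4.3.3 with the data.table package 1.17.8, over all 15338 genes, with Benjamini-Hochberg adjusted p under 0.05; 2 residual degrees of freedom between genotypes, 3 otherwise. These p-values measure the spread between arrays, not animals. A fold against a signal not well above background is a bound, written as at least, against the lowest signal well above background. Figures used matplotlib 3.10.9. The number of arrays limits the precision.

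On simulated data with genes changed 2-fold and 8-fold, the fits recovered 1.49% and 75.8% between genotypes, 41.8% and 90.9% for diet, 29.9% and 83.3% for 12 minus 6 weeks, and 32.8% and 80.3% for 20 minus 12 weeks (15338 genes each). In every comparison the simulated noise was the spread left by the 8-array diet fit. For genes far apart on chow it is thus wider than in the genotype fit on 6 arrays. Alternatives were another background correction and normalization, another percentile, the deposited table, filters, every probe, and arrays left out. The genes and the 10 other lists were chosen with earlier results of these data known. Named were all 8 genes, up to 4 members of a list furthest apart on chow, those past the threshold (up to 4), and the 5 genes most like and least like G6pc. The values of 2 named list genes are not reported here.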

Additional observations from a re-analysis of the deposited data

Results flagged for a closer look

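G6pc was singled out because every AIM-/- week moved one way from its chow liver and every AIM+/+ week the other. The mean of 6, 12 and 20 weeks minus chow was 3.66 (log2) in AIM-/- livers and -1.20 in AIM+/+ livers. Ppargc1a was singled out in the same way, at -0.31 in AIM-/- livers and 0.27 in AIM+/+ livers with its brighter probe. With its other probe the AIM-/- liver at 20 weeks was at 0.03 against chow, so the directions no longer separate. Neither difference between genotypes was tested, and both rest on the chow pair that was used to choose the genes.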

How the results depend on the processing

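No paired analysis was possible because each group has 1 sample, labelled replicate 1, so no replicate number could serve as a block. The genotype test on high-fat diet pairs the arrays by week instead. Under every alternative tried, 0 of the 8 genes passed in any of the 4 tested comparisons, and the G6pc difference on chow lay between -5.29 and -5.15. The counts over all genes were less steady. Between genotypes on high-fat diet 1 gene passed, 3 with probes well above background on all 8 arrays, 5 with the chow pair included, and 0 without any 1 week. For diet 358 passed, 686 after normexp and quantile normalization, 905 with probes well above background on all 8 arrays, 27 with no filter, 0 without the 20-week pair, and 0 to 522 when a week was left out. For 20 minus 12 weeks 18 passed, 8 after normexp and quantile normalization, 1 with probes well above background on all 8 arrays, 9 with no filter, and 3 to 13 when a week was left out. The cause was not tested. Of the 8 genes, the number at least 2-fold apart was 0 at 6 weeks with normexp or with the percentile over probes well above background on all arrays, and 1 at 12 weeks with normexp. On chow, normexp gave medians of -0.021 for regulators (0.09 otherwise) and 0.73 for the clock (0.86 with no filter), and counts of 1 for glucocorticoid genes lower and 1 for acute phase genes higher. The other percentile gave 1 gluconeogenic enzyme lower and 1 acute phase gene higher, and the stricter filter, with fewer genes, 1 glucocorticoid and 1 clock gene lower. Small differences turned sign without passing. Between genotypes Sds gave 0.040 with normexp and 0.17 with the chow pair included. Leaving out a week gave -0.36 to 0.18 for Sds, -0.57 to 0.087 for Tat, -0.37 to 0.21 for Foxo1 and -0.88 to 0.35 for Igfbp1. For diet Fbp1 gave 0.19 with normexp, and leaving out a week gave -0.0078 to 0.0043 for Fbp1 (-0.08 without the 20-week pair), -0.11 to 0.10 for Ppargc1a, -0.23 to 0.51 for Igfbp1 (-0.50 without the 20-week pair), -0.0037 to 0.20 for Foxo1 and -0.013 to 0.12 for Slc37a4, the low ends of Foxo1 and Slc37a4 being those without the 20-week pair. For 12 minus 6 weeks Fbp1 gave 0.027 with normexp and 0.013 with the other percentile, and Slc37a4 gave 0.020 with normexp.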
